A study of Homo sapiens with 8 samples.

Results

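In 4 lines made from A-498, a long-used line of human kidney cancer, 39 genes were near silent in at least 1 line and clearly expressed in at least 1 other. They were chosen by their normalized read counts: a gene was kept where the lowest of the 4 line means was 5 or less and the highest was 50 or more. The 39 came from 27745 genes with a symbol. A line mean of 5 or less is called silent here, 50 or more is called on, and values inside these limits are called between. Because line means chose the genes, their differences between lines are given as descriptions without a test.

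The study compared control lines with lines made to lack ANXA4, the gene of annexin A4, which binds membranes in a calcium-dependent way. All were grown in RPMI medium with FCS. Control line 1 carried non-targeting sgRNA-1 and control line 2 non-targeting sgRNA-2, both with a wild type genotype. The lines labelled KO guide 1 and KO guide 2 carried ANXA4 sgRNA-1 and ANXA4 sgRNA-2 and had the genotype label ANXA4 knockout. Each line gave 2 polyA RNA-seq libraries from non-confluent cultures, so that a guide and the line that carries it cannot be told apart. The labels did not say whether a line was a clone or a pool, nor whether replicates were separate cultures, and p-values measure only the spread between these libraries.

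Cells of 1 tumour line can keep a gene active or shut in a heritable way, through DNA methylation, Polycomb or other chromatin marks, or through gain and loss of chromosome segments. When a few cells are expanded into a new line, such states pass on to all descendants. Promoters dense in CpG dinucleotides are the usual targets of DNA methylation in silenced genes of cancer cells. Neither methylation nor copy number was measured in this series.

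Depth was 15784890 to 22631588 reads per library, and 1 read was worth 0.783 to 1.21 normalized counts, so a line mean of 5 stood for about as many reads. The ANXA4 transcript had 2821 and 3614 counts in control line 1, while control line 2 had 3858 and 6773. It was at 235.6 and 234.4 in the line labelled KO guide 1 but had 3433 and 4142 in the line labelled KO guide 2, which goes against that label at the level of RNA. Of 8 kidney carcinoma markers, PAX8 was at 2987 to 4476 and CA9 at only 2.08 to 24.8. Of 11 markers of blood, endothelium, fibroblasts and liver, 3 were at 0 in every library. Only COL1A1 exceeded 10, with line means of 1218 and 699.5 in control lines 1 and 2 and 186 and 446.6 in the lines labelled KO guide 1 and 2. Its part in the results was not tested. Mitochondrial genes held 4.67% to 9.05% of reads in 7 libraries and 13.8% in replicate 2 of the line labelled KO guide 2. Within each line the 2 libraries had a Pearson's r of 0.978 to 0.987 across genes, which are not independent replicates.

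The 39 genes were not shared evenly among the lines. The line labelled KO guide 2 was silent for 20 of them, the line labelled KO guide 1 for 15, control line 1 for 9 and control line 2 for 4. Control line 1 was on for 23, control line 2 for 16, and the lines labelled KO guide 1 and 2 for 13 and 12. Over all genes with a symbol, the line labelled KO guide 2 had the fewest silent genes (13393, against 13459 to 13507 elsewhere). It also had the most genes on (11188, against 11145 to 11161 elsewhere). Its large share of silent members was thus not a trait of all its genes. A single line was silent for 31 genes, a pair of lines for 7 and 3 lines for 1 gene. In 28 of the 39 at least 1 other line lay between the limits, and 11 were either silent or on in all 4. A line between the limits does not by itself mark a graded gene, since a mean just inside a limit also counts.

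Few of the 39 were split by the control and knockout labels. Only CPVL was on in both control lines and silent in both knockout-labelled lines, and 0 genes showed the reverse. Short of the limits, both lines of one label lay on one side of both lines of the other in 17 genes. The same count over all tested genes was not taken, so nothing is read from the 17. Control lines, without a knockout in either, differed from silent to on in 8 genes. For 5 of these control line 1 was the silent one (ALDH3A1, BASP1, LGI2, MYL9 and PPP1R11) and for 3 it was control line 2 (CGREF1, MYEOV and TMEM171). The knockout-labelled lines stood in this relation for 13 genes. The largest of the 12 ordered pairs was silent in the line labelled KO guide 2 and on in control line 1, with 14 genes.

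**Figure D1:**
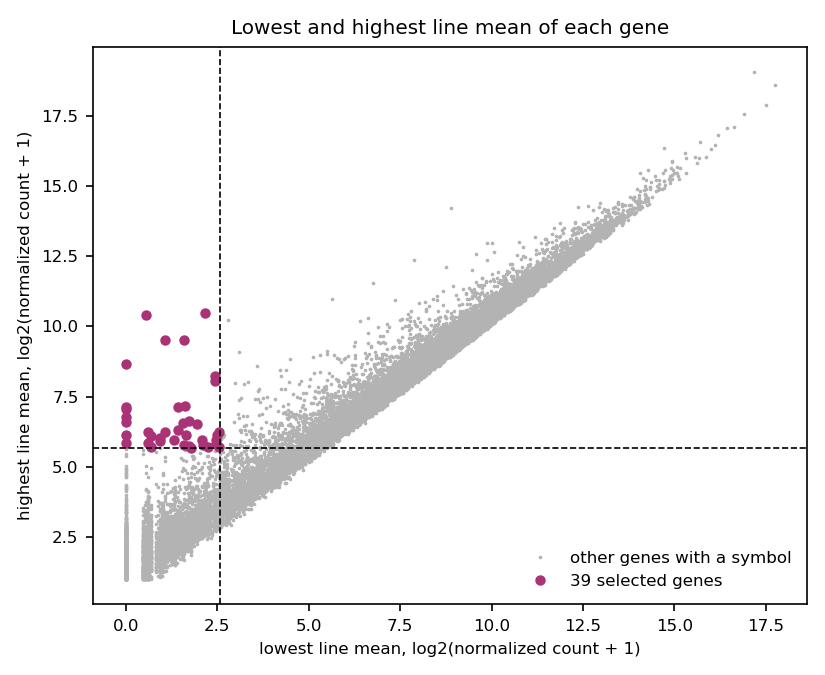
Lowest against highest line mean of every gene with a symbol and a highest mean of at least 1, as log2(normalized count + 1); dashed lines mark the limits of 5 and 50. The 39 selected genes fill the upper left corner, with highest line means from 50.6 to 1409.

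**Figure D2:**
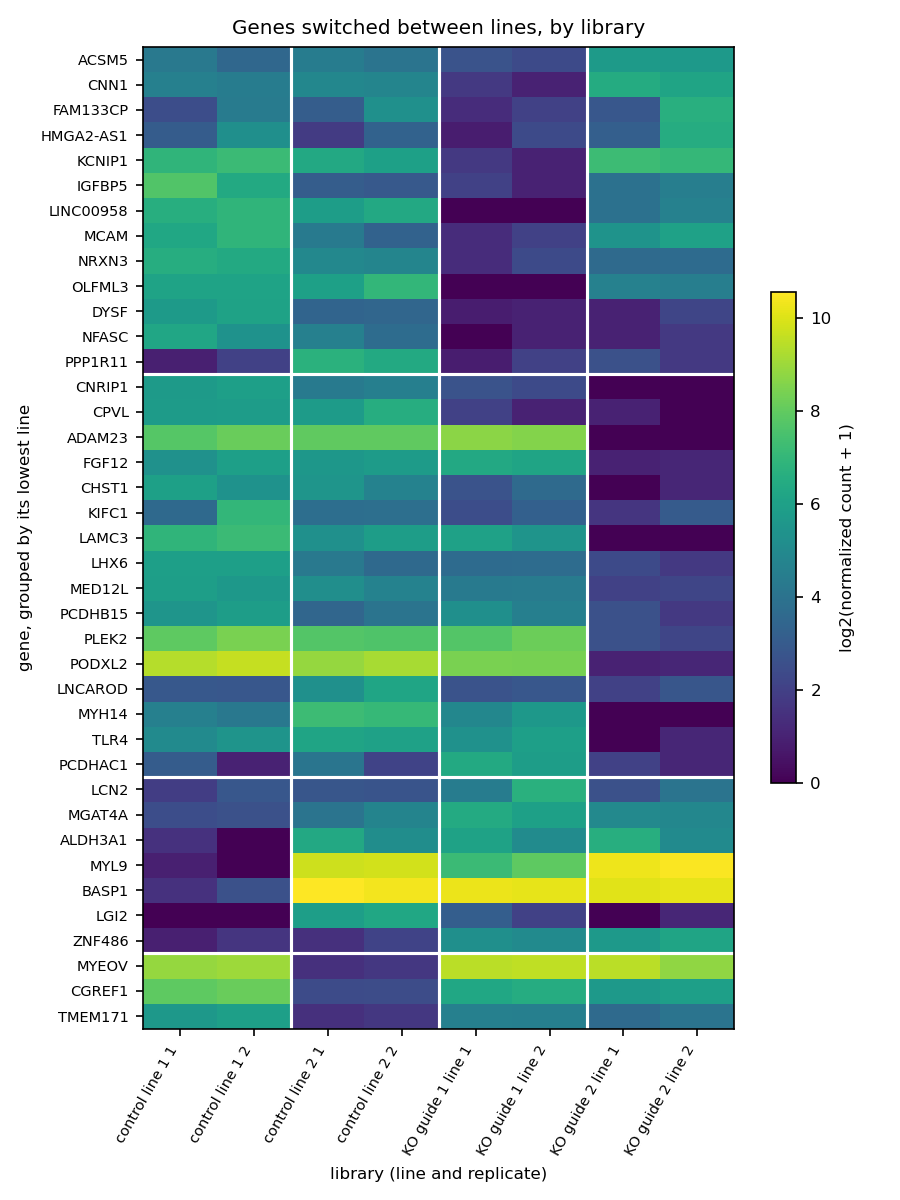
Normalized counts of the 39 genes in the 8 libraries, as log2(value + 1), with genes grouped by their lowest line and white lines between lines and groups. The largest block is dark in both libraries of the line labelled KO guide 2, and BASP1 and MYL9 are dark only in control line 1.

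Most of the 39 were modest in level where they were on. The median of the highest line mean was 74.2 normalized counts, 27 genes stayed under 100, and 4 reached 500 or more (BASP1, MYL9, PODXL2 and MYEOV). In their lowest line, 26 had at most 3 reads in each library and 7 had 0 reads in both. In all 39 the replicates of the highest and lowest line did not overlap, as the choice of genes largely fixes. In 24 genes every library was past the limits. The other 15 had a library on the wrong side of a limit, in the highest line for 11, in the lowest line for 8 and in both for KIFC1, LCN2, LNCAROD and PCDHB15.

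Near the limits, the choice was close. The members with the smallest highest mean were HMGA2-AS1 at 50.6, PCDHB15 at 51.2 and ACSM5 at 51.7. Just outside lay PTPN22 at 49.6, GATA5 at 49.1 and SCG5 at 48.0. Members nearest to the lower limit were MGAT4A at 4.90, ACSM5 at 4.81 and KIFC1 at 4.66, and just outside lay ADAMTS6 at 5.06, PDCD1LG2 at 5.12 and ZNF91 at 5.30.

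Annotated promoters were compared next, since sequence had no part in the choice. Shown are the 250 bases before the annotated start of 5 members that were at or near 0 in a line, to set CpG-dense against CpG-poor promoters (RefSeq, GRCh38.p14, plus strand, CpG in capitals). ADAM23, PODXL2 and BASP1 are dense (chr2:206443282-206443531, chr3:127628935-127629184 and chr5:17216573-17216822). KCNIP1 and OLFML3 are poor (chr5:170353237-170353486 and chr1:113979224-113979473).
ADAM23: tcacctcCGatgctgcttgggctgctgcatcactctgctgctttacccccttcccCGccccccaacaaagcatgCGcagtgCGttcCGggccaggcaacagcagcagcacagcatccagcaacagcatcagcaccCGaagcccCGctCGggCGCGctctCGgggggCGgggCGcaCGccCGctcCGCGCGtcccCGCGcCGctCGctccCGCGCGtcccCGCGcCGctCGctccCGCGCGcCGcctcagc
PODXL2: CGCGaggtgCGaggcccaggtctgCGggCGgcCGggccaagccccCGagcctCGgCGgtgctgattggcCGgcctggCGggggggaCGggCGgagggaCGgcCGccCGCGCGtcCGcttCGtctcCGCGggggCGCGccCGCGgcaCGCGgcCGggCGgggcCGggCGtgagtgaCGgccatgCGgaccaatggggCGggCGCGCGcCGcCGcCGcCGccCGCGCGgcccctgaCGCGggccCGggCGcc
BASP1: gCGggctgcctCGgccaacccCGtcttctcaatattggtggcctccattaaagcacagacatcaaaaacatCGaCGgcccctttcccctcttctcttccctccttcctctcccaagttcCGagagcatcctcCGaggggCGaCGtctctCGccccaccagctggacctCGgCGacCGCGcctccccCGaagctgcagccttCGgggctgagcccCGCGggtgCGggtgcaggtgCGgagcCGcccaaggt
KCNIP1: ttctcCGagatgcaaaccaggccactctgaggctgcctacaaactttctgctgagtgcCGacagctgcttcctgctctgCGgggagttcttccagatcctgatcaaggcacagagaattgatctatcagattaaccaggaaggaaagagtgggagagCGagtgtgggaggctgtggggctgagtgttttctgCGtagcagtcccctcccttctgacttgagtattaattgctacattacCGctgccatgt
OLFML3: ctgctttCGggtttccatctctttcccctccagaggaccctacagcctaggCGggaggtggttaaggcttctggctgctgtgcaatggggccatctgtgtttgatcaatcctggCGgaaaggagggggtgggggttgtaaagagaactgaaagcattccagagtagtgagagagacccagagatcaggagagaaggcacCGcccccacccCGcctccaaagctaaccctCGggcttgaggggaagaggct

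These stretches hold 33, 49, 21, 6 and 6 CpGs, in the order shown. The first 2 were silent in the line labelled KO guide 2, BASP1 in control line 1, and the last 2 in the line labelled KO guide 1. A window of 300 bases, from 250 before to 50 after the start, was given for 30 of the 39 members and for 11001 of 14001 other genes tested (MYL9 and MYEOV had none). Where a gene had several starts, the window nearest to the gene's 5′ end was used, and which start A-498 cells use is not known from these counts. With an observed over expected CpG of at least 0.6 and a GC content of at least 50% taken as CpG-rich, 17 of the 30 members (56.7%) were CpG-rich, against 78.7% of the others. The median CpG ratio was 0.696 in members and 0.834 in the others. Within protein-coding genes the shares were 60.7% of 28 members and 79.7%. Expression level did have a part in the choice, with a median highest line mean of 74.2 in members. The share among genes of like level was not taken, so the gap is not read as a trait of switched genes.

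CpG-rich promoters were also counted by silent line, beside the 78.7% of other tested genes that were CpG-rich. Of members silent in the line labelled KO guide 2, 13 of 17 with a window were CpG-rich, near the share of other genes. For the line labelled KO guide 1 it was 4 of 12. Control line 1 had 4 of 6 and control line 2 had 2 of 3. These small counts are a description only. Other features differed little: 89.7% of members and 90.8% of the other tested genes were protein-coding, and the median span was 26.4 kb against 29.5 kb.

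**Figure D3:**
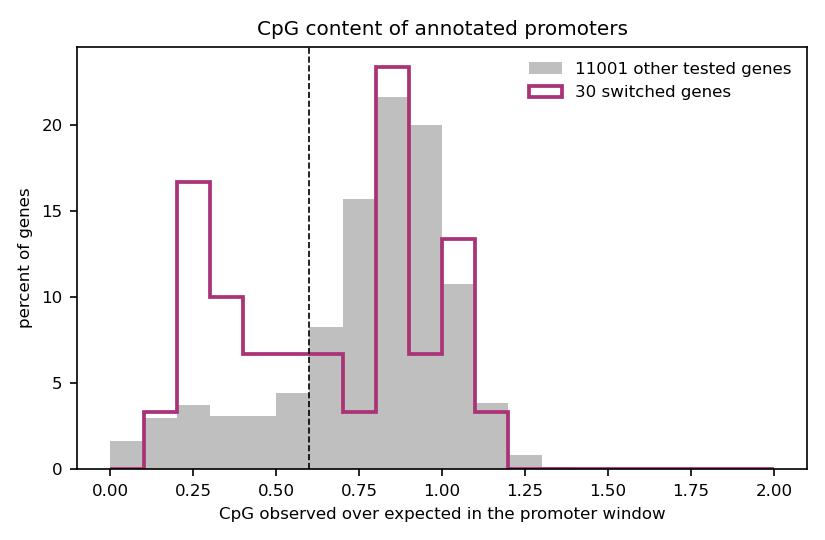
Observed over expected CpG in the 300-base promoter window, as the percent of genes per bin of the ratio, for 30 switched genes (line) and 11001 other tested genes (grey); the dashed line marks 0.6. Members have a second group at low ratios, and 17 of 30 met both limits of a CpG-rich promoter.

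Contractile and cytoskeletal proteins gave 5 members, 3 of them silent in the line labelled KO guide 2. That line was silent for 20 of all 39 members. MYL9 (Entrez 10398, chr20:36541519-36551447), a regulatory light chain of nonmuscle and smooth muscle myosin, had 0.919 and 0 counts in control line 1. It had 862 and 903 in control line 2, 146 and 241 in the line labelled KO guide 1, and 1251 and 1434 in the line labelled KO guide 2. A single read stood against the highest line, a ratio of 2920 with a 95% counting interval of 524 to 115000 (exact Poisson limits of the silent line's reads alone, as for all such intervals here). Control line 1 thus lacked the transcript, and the 3 lines that had it still spanned 6.94-fold.

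CNN1, calponin, an actin-binding protein of smooth muscle, had 2.35 and 1.04 counts in the line labelled KO guide 1 and 87.9 and 71.2 in the line labelled KO guide 2. The control lines lay between, at 20.8 to 28.4. MYL9 and CNN1 were thus highest in the same line but silent in different ones. MYH14, a nonmuscle myosin heavy chain, had 0 reads in the line labelled KO guide 2, against 150 and 133 counts in control line 2, at least 84.5-fold more (against a floor of 3 reads over the 2 libraries of a line). PLEK2, a pleckstrin-family protein that acts on the actin cytoskeleton, had 5.17 and 3.62 counts in that line and 201 to 348 in the 6 other libraries. It overlaps GPHN, so its reads are uncertain if strand was not used.

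KIFC1, a minus-end kinesin of the mitotic spindle, owed its place to 1 library: it had 11.0 and 127 counts in control line 1 and 2.07 to 13.6 in the 6 others. It lies in the HLA region of chromosome 6, as does PPP1R11, an inhibitor of protein phosphatase 1. PPP1R11 was on only in control line 2, at 105 and 83.8, with 0.783 to 5.17 elsewhere. Between HLA-F and KIFC1, only 15 of 140 protein-coding genes (10.7%) passed the filter on low values, against 62.2% of 854 on the rest of chromosome 6. GRCh38 holds alternate sequences of this region, to which reads can also align. The counts of KIFC1 and PPP1R11 are therefore uncertain as levels, and the part of the alternate sequences in them was not tested.

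**Figure D4:**
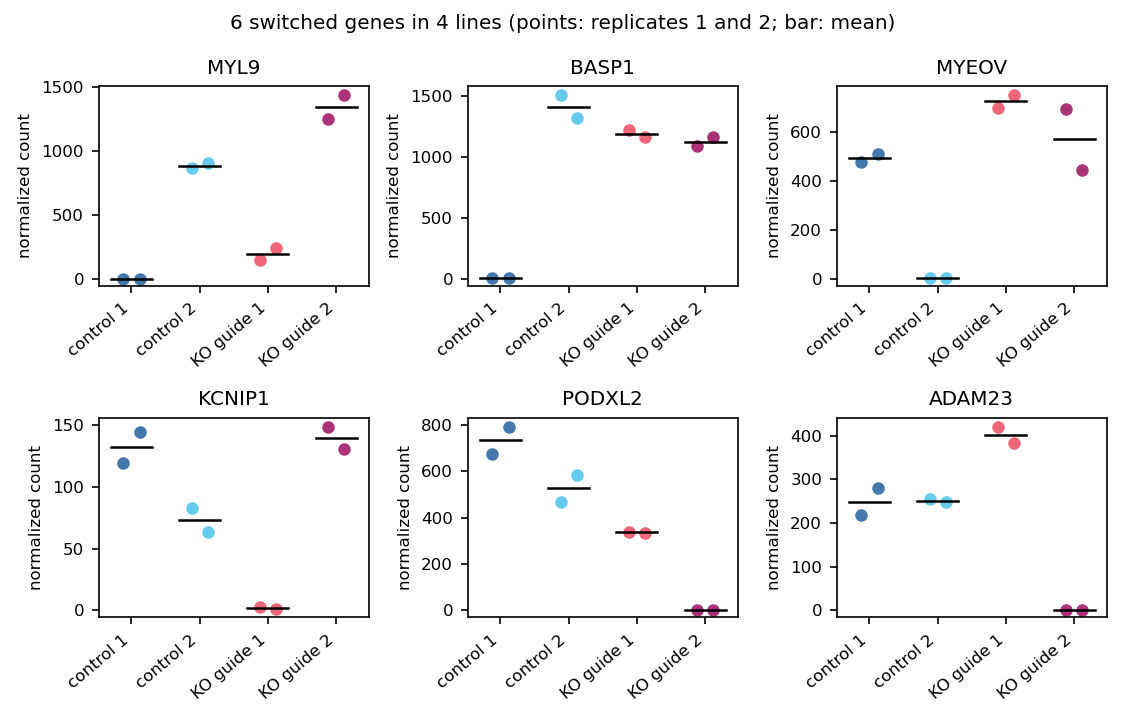
Normalized counts of MYL9, BASP1, MYEOV, KCNIP1, PODXL2 and ADAM23 in each line (points are the 2 replicates, bars their mean, linear axes). Each gene is near 0 in both libraries of 1 line and well above it in all others: control line 1 for MYL9 and BASP1, control line 2 for MYEOV, the line labelled KO guide 1 for KCNIP1 and the line labelled KO guide 2 for PODXL2 and ADAM23.

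Adhesion, matrix and secreted proteins were the largest class, with 13 members, of which 10 were on in control line 1. That line was on for 23 of all 39 members. The classes were assigned after the members were known, and their share among all tested genes was not taken, so no theme is read from them. ADAM23 (Entrez 8745, chr2:206443532-206621127), a membrane-bound member of the disintegrin family that lacks protease activity and binds integrins, had 0 reads in both libraries of the line labelled KO guide 2. It had 218 and 281 counts in control line 1, 255 and 248 in control line 2, and 421 and 383 in the line labelled KO guide 1. The highest line was at least 241-fold above the floor, and the 3 lines that expressed it differed by no more than 1.61-fold.

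PODXL2 (Entrez 50512, chr3:127629185-127672802), endoglycan, a sialomucin of the CD34 family, showed the same silent line. It had 1 read in each of these libraries (1.03 and 1.21 counts). Counts were 674 and 794 in control line 1, 469 and 584 in control line 2, and 340 and 333 in the line labelled KO guide 1. The ratio of highest to lowest line was 655 (95% counting interval 181 to 5410). LAMC3, a laminin gamma chain of basement membranes, also had 0 reads there, against 120 and 147 counts in control line 1 and 37.9 to 64.2 in the other 4 libraries, at least 79.9-fold lower.

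The line labelled KO guide 1 was silent for a different group of these genes. OLFML3, a secreted olfactomedin-domain protein, had 0 reads in it, against 63.7 and 127 counts in control line 2, at least 71.2-fold lower. MCAM, the cell adhesion molecule CD146, had 1.57 and 3.11 counts there, and 76.3 and 120 in control line 1. IGFBP5, a secreted binding protein of insulin-like growth factors, had 3.13 and 1.04 counts, against 203 and 85.3 in control line 1. NRXN3, a synaptic neurexin, had 1.57 and 4.15 counts against 95.6 and 85.3. Control line 1 was thus the highest line for MCAM, IGFBP5 and NRXN3, while control line 2 lay between the limits for all 3, at 6.80 to 29.2.

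NFASC, a cell adhesion molecule of axons, was silent in both knockout-labelled lines, with 0 to 2.41 counts, and had 74.5 and 40.6 in control line 1. The protocadherins split: PCDHAC1 was on only in the line labelled KO guide 1, at 83.0 and 57.05, and PCDHB15 was on only in control line 1, at 44.1 and 58.2. Protocadherin genes lie in clusters of similar copies, PCDHAC1 shares exons with the rest of its cluster, and their counts are uncertain. LGI2, a secreted leucine-rich repeat protein, had 0 reads in control line 1, 0 and 1.21 counts in the line labelled KO guide 2, and 59.4 and 78.2 counts in control line 2.

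CGREF1, a secreted calcium-binding protein that restrains growth, had 4.30 and 4.53 counts in control line 2, against 247 and 279 in control line 1 and 51.7 to 91.3 in the knockout-labelled lines. It overlaps KHK. LCN2, lipocalin 2, a secreted iron-siderophore carrier that kidney tubules make on injury, was carried by 1 library, with 20.4 and 104 counts in the line labelled KO guide 1 and 2.76 to 15.7 elsewhere. Its replicates differed more than its other lines did.

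Of 7 membrane, channel and signalling proteins, BASP1 had the highest level. BASP1 (Entrez 10409, chr5:17216823-17276834), a membrane-associated protein of growth cones that also acts as a transcriptional corepressor, had 1.84 and 5.20 counts in control line 1. It had 1504 and 1313 in control line 2, 1220.0 and 1159 in the line labelled KO guide 1, and 1084 and 1159 in the line labelled KO guide 2. The 3 lines that expressed it differed by 1.26-fold, and the ratio of control line 2 to control line 1 was 400 (95% counting interval 194 to 995). It overlaps an antisense gene.

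KCNIP1 (Entrez 30820, chr5:170353487-170736632), a calcium-binding subunit of voltage-gated potassium channels, had 2.35 and 1.04 counts in the line labelled KO guide 1. It had 120 and 145 in control line 1, 82.6 and 63.5 in control line 2, and 149 and 130 in the line labelled KO guide 2. The ratio was 82.5 (95% counting interval 32.2 to 303). KCNIP1 overlaps KCNMB1, so reads of KCNIP1 are uncertain if strand was not used. FGF12, an intracellular fibroblast growth factor homologue that binds sodium channels, had 1 read in each library of the line labelled KO guide 2, against 39.5 to 80.6 counts elsewhere. TLR4, the receptor of bacterial lipopolysaccharide, had 0 and 1.21 counts in that line and 32.2 to 71.4 elsewhere.

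DYSF, dysferlin, which acts with annexins in plasma membrane repair, was on in control line 1 alone, at 53.3 and 66.6 counts. It was at 9.46 and 10.2 in control line 2 and at 0.783 to 3.62 in both knockout-labelled lines. CNRIP1, which binds the cannabinoid receptor CB1, followed a like course, with 53.3 and 61.4, 18.9 and 22.7, 5.48 and 4.15, and 0 and 0 in control lines 1 and 2 and the lines labelled KO guide 1 and 2. TMEM171 had 1.72 and 2.27 counts in control line 2, while control line 1 had 47.8 and 61.4. For DYSF and CNRIP1 the control lines themselves were apart, so these courses do not follow the labels alone.

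Among 5 enzymes, CPVL, a serine carboxypeptidase-like protein, was the gene whose silence matched the knockout labels. It had 54.2 and 56.2 counts in control line 1, 55.1 and 94.0 in control line 2, 3.13 and 1.04 in the line labelled KO guide 1, and 1.03 and 0 in the line labelled KO guide 2. It overlaps CHN2 and antisense genes. ALDH3A1, an aldehyde dehydrogenase, was silent only in control line 1, at 1.84 and 0 counts, against 32.6 to 96.2 in the other 6 libraries. CHST1, a carbohydrate sulfotransferase, had 0 and 1.21 counts in the line labelled KO guide 2 and 63.4 and 40.6 in control line 1. MGAT4A, an enzyme of N-glycan branching, and ACSM5, a mitochondrial acyl-CoA synthetase, had the smallest ratios of the 5, at 15.1 and 10.7 between highest and lowest line.

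PPP1R11, described above, was 1 of 4 nuclear and regulatory genes. Of the others, ZNF486, a KRAB zinc finger gene of a chromosome 19 cluster, was silent in both control lines, at 0.919 to 3.40 counts. It had 37.6 and 32.2 in the line labelled KO guide 1 and 51.7 and 71.2 in the line labelled KO guide 2. LHX6, a LIM homeobox transcription factor, and MED12L, a paralogue of a Mediator subunit, were lowest in the line labelled KO guide 2, at 4.14 and 2.41 and at 3.10 and 3.62. Both were highest in control line 1, at 61.6 and 61.4 and at 59.8 and 48.9.

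MYEOV (Entrez 26579, chr11:69294155-69297287), a gene beside CCND1 that is often overexpressed in myeloma, had 1.72 and 2.27 counts in control line 2. It had 477 and 513 in control line 1, 702 and 753 in the line labelled KO guide 1, and 696 and 448 in the line labelled KO guide 2. The ratio was 365 (95% counting interval 143 to 1340), and only control line 2 lacked it. The noncoding LINC00958 had 0 reads in the line labelled KO guide 1, against 97.5 and 118 counts in control line 1, at least 80.3-fold lower. The noncoding LNCAROD was on only in control line 2, at 38.7 and 72.5.

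Replicates 2 and 1 were also compared within lines. The line means that chose the members hold both replicates, and some members entered through 1 library, so this contrast was not independent of the choice and nothing is read from its calls. Of 39 members, limma called 4 between replicates (10.3%), beside 17.6% of all 14040 tested genes (adjusted p under 0.05, with line as a term). They were HMGA2-AS1, antisense to HMGA2, and the pseudogene FAM133CP, higher in replicate 2 in all 4 lines, and ALDH3A1 and PCDHAC1, lower in replicate 2 in all 4 lines. Only 2 were called without any 1 of 4 libraries: replicate 2 of control line 1, either of control line 2, or the second library in the line labelled KO guide 2.

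For HMGA2-AS1 and FAM133CP the replicates of the highest line lay further apart in counts, though not as a ratio, than the highest and lowest line means. HMGA2-AS1 had 8.27 and 93.0 counts in the line labelled KO guide 2 and 7.36 and 37.4 in control line 1. FAM133CP had 6.21 and 100.2 in the line labelled KO guide 2 and 7.74 and 38.5 in control line 2. Each passed the upper limit only through replicate 2 of that line, the library with 13.8% mitochondrial reads, and the part of RNA composition was not tested.

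Neighbouring genes were then examined, whose values the choice did not use. For each member the 2 nearest tested genes on each side were taken that neither overlapped it nor were members, 156 in all, at 0.150 kb to 7210 kb (median 196 kb). No members adjoined each other. Among the 4 lines 27 of the 156 differed (17.3%, limma F test, adjusted p under 0.05), close to the 14.9% of all 14001 tested genes that were not members. With the replicate number as a block 72 did (46.2%, against 42.8%).

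Calls of neighbours were mostly in the direction of the member. In the contrast of the lines where the member was on against those where it was silent, 23 of 156 (14.7%) were called higher with the member and 1 (0.641%) lower. Over the same contrasts, 4.26% of all other tested genes were called higher and 3.82% lower. Among genes of the member's own chromosome the shares were 6.96% and 2.38%. With the replicate block 39 were called higher (25%, against 11.7% of other genes and 16.6% on the own chromosome) and 11 lower (7.05%, against 11.3% and 7.92%). The 23 neighbours belonged to 12 members, and neighbours of 1 member are not independent of each other. The 23 fell to 8 and 12 without replicate 1 or 2 of control line 1, to 15 without replicate 1 of control line 2, to 12 and 13 without replicate 1 or 2 in the line labelled KO guide 1, and to 13 without replicate 2 in the line labelled KO guide 2.

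Much of this lay on chromosomes 3 and 9. Beside the 3 members of chromosome 3 (PODXL2, MED12L and FGF12), all silent in the line labelled KO guide 2, 8 of 12 neighbours were called with the member (66.7%). Over the same contrasts 36.0% of all tested genes of chromosome 3 were also called higher. With the block 9 of 12 were called (75%, against 55.2%). In control line 1, the highest line of PODXL2 and MED12L, the median of chromosome 3 genes lay at 0.39 relative to the mean of the 4 lines on the log2 scale, and in the line labelled KO guide 2 at -0.31. On chromosome 9, whose median lay at -0.29 there, 5 of 16 neighbours were called with the member (31.2%), against 15.2% of tested genes of that chromosome. With the block this became 7 of 16 (43.8%), near the 39.2% of the chromosome.

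On the other chromosomes 10 of 128 were called with the member (7.81%), against 3.42% of genes of the same chromosome, and 0 against it. With the block 23 were called with it (18%, against 10.7%) and 10 against it (7.81%, against 8.91%). Of the 10 called with the member without the block, 4 lay on chromosome 2, whose median was also lowered in the line labelled KO guide 2, at -0.20, and 4 on chromosome 19. Copy number was not measured, and its part was not tested.

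**Figure D5:**
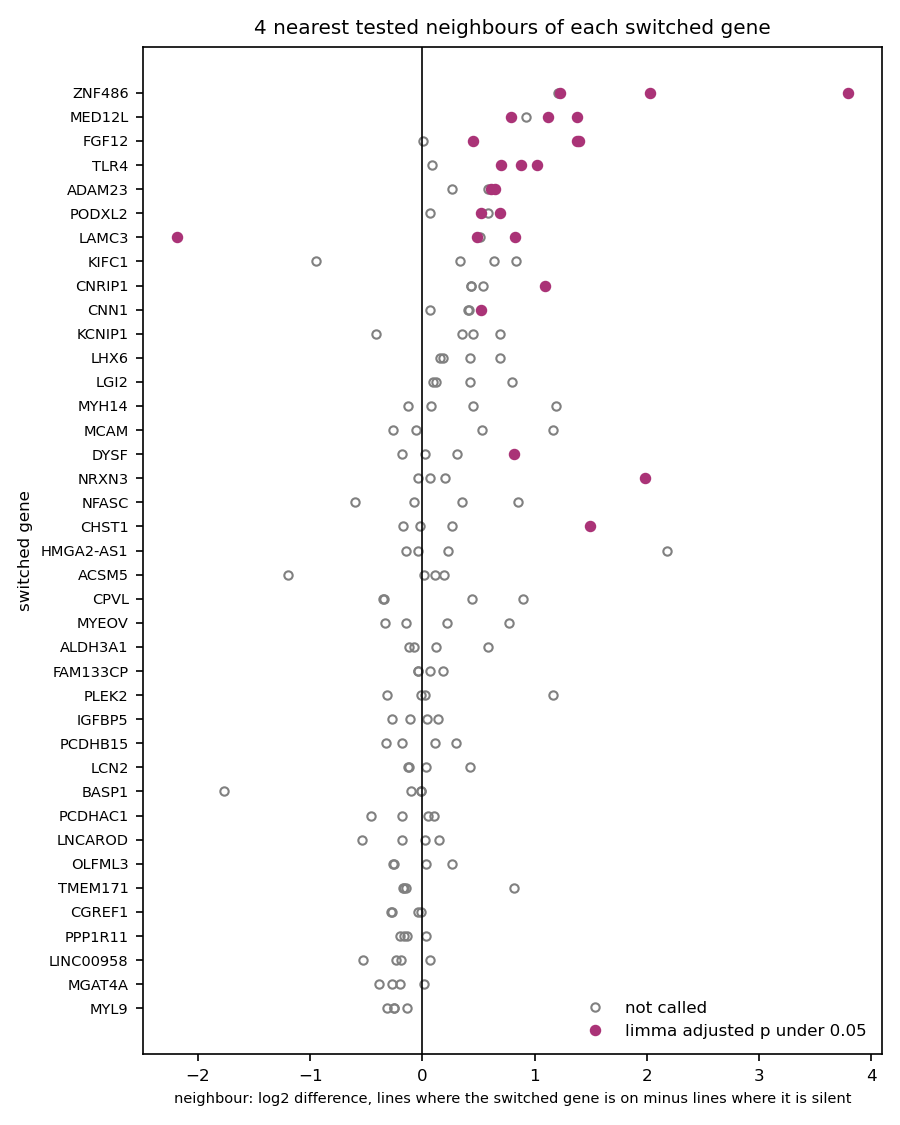
Log2 difference of each of the 4 neighbours of a switched gene between the lines where that gene is on and those where it is silent, 1 row per switched gene; filled points passed limma's adjusted p under 0.05. Of 24 filled points, 23 lie to the right of 0, most beside ZNF486, MED12L, FGF12, TLR4, ADAM23, PODXL2 and LAMC3, and 1 lies far to the left beside LAMC3.

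Around PODXL2, MCM2, a subunit of the replicative helicase 6.75 kb away, was higher with it by 0.69 (log2, SE 0.16, limma adjusted p 0.0275). Line means of MCM2 were 4177, 3166, 3308 and 2200.0 in control lines 1 and 2 and the lines labelled KO guide 1 and 2. TPRA1, at 31.0 kb, was higher by 0.52 (SE 0.12, limma adjusted p 0.0255). The nearest neighbour, ABTB1 at 0.150 kb, missed the threshold (0.59, SE 0.20, limma adjusted p 0.0988) and passed it with the replicate block (adjusted p 0.0261). MGLL, an enzyme that breaks down monoglycerides, at 16.3 kb, differed by 0.07 (SE 0.15, limma adjusted p 0.81). Both calls were lost without replicate 1 of control line 1, replicate 1 in the line labelled KO guide 1 or replicate 2 in the line labelled KO guide 2. That of MCM2 was also lost without replicate 2 in the line labelled KO guide 1, and that of TPRA1 without replicate 2 of control line 1 or replicate 1 in the line labelled KO guide 2 (limma adjusted p 0.0611 to 0.167 over these refits).

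The nearest neighbour of FGF12, MB21D2 at 69.3 kb, differed by 0.01 (SE 0.21, limma adjusted p 0.983). IL1RAP, the accessory chain of the interleukin 1 receptor, 1480 kb from FGF12, was higher with it by 1.40 (SE 0.22, limma adjusted p 0.00747), and PLAAT1, at 513 kb, by 1.38 (SE 0.24, limma adjusted p 0.0103). IL1RAP means ran from 521 in control line 1 through 315.9 and 230.7 to 127.8 in the line labelled KO guide 2. Beside MED12L, SIAH2, a ubiquitin ligase of the hypoxia response at 322 kb, was higher by 1.12 (SE 0.19, limma adjusted p 0.00633) and the pseudogene AADACP1, at 334 kb, by 1.38 (SE 0.25, limma adjusted p 0.0095). Without replicate 1 of control line 1 both missed the threshold (limma adjusted p 0.0595 and 0.0803), as did AADACP1 without replicate 2 (0.0514). IL1RAP also stood apart between the control lines, so its course did not mark the silent line alone.

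Around ADAM23 on chromosome 2, FASTKD2, a mitochondrial RNA-binding protein 144 kb away, was higher with it by 0.61 (SE 0.12, limma adjusted p 0.0154). Its means were 1290, 1305 and 1270 in the 3 other lines and 847.6 in the line labelled KO guide 2. The nearest neighbour of ADAM23, MDH1B at 117 kb, differed by 0.26 (SE 0.46, limma adjusted p 0.765). ZDBF2, an imprinted gene 129 kb away, was higher by 0.64 (limma adjusted p 0.0382), a call lost in 9 of 16 refits: with equal library totals (0.0537), without a filter (0.0523) and without any 1 library other than replicate 2 of control line 2 (0.0563 to 0.153). FASTKD2 lost its call without replicate 1 in the line labelled KO guide 2 (limma adjusted p 0.0758). Beside CHST1, SLC35C1 at 138 kb, CRY2 at 181 kb and PRDM11 at 413 kb were not called (limma adjusted p 0.333, 0.625 and 0.978). ZNF638, 18.5 kb from DYSF, was higher with it by 0.82 (SE 0.15, limma adjusted p 0.0106). TP53I11, further from CHST1 at 696 kb, was higher with it by 1.496 (SE 0.25, limma adjusted p 0.00602). Without replicate 1 of control line 1 both missed the threshold (limma adjusted p 0.123 and 0.0502).

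LAMC3 had neighbours in both directions. FIBCD1, at 68.5 kb, was higher with it by 0.83 (SE 0.14, limma adjusted p 0.00858), and NUP214 on the other side by 0.48 (SE 0.12, limma adjusted p 0.0415). AIF1L, an actin-binding protein only 2.06 kb away, changed by -2.19 (SE 0.51, limma adjusted p 0.0312). It had 52.7 and 85.7 counts in the line labelled KO guide 2, where LAMC3 had 0 reads, and 8.28 to 31.2 in the 6 other libraries. The call of AIF1L was lost without replicate 1 of control line 1 or without any 1 library of the knockout-labelled lines (limma adjusted p 0.057 to 0.163). That of NUP214 was lost in 8 of 16 refits: with equal library totals (0.0567), without a filter (0.0543), and without any 1 library of control line 1 or the knockout-labelled lines (0.0867 to 0.143). The nearest neighbour of LAMC3 was thus high where LAMC3 was silent.

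Beside ZNF486, 3 of 4 neighbours, all zinc finger genes, were called with it. ZNF431 had 24.8 and 22.9 counts in the line labelled KO guide 2, 0 to 4.53 in the control lines and 0 reads in the line labelled KO guide 1, a log2 difference of 3.79 between the first and the controls (SE 0.65, limma adjusted p 0.00845). ZNF506 had 17.5 to 43.9 counts in the control lines and 65.0 to 77.3 in the knockout-labelled lines (1.22, SE 0.24, limma adjusted p 0.015). ZNF430 was higher by 2.02 (SE 0.53, limma adjusted p 0.0426), a call lost in 7 of 16 refits: without a filter (0.0623) and without any 1 library other than replicate 2 of control line 2 or replicate 1 in the line labelled KO guide 1 (0.053 to 0.202). ZNF506 lost its call without replicate 2 in the line labelled KO guide 2 (0.0777). Genes of this cluster have similar sequences, and their counts are uncertain where reads could be split. Of the 6 members shown by line above, MYL9, BASP1, KCNIP1 and MYEOV had 0 neighbours called with them by limma without the replicate block. With the block, DOCK2 (0.69, adjusted p 0.0101) and NPM1 (0.36, adjusted p 0.0251) were called with KCNIP1, and FBXW11 (-0.42, adjusted p 0.0409) against it. AAR2 was called against MYL9 (-0.31, adjusted p 0.0459) and CDH10, 7210 kb away, against BASP1 (-1.77, adjusted p 0.046). CCND1, 344 kb from MYEOV, differed among the lines (limma F adjusted p 0.0416), with means of 3921, 2018, 3806 and 2793. It missed the threshold with MYEOV (0.77, SE 0.18, limma adjusted p 0.0875) and passed it with the replicate block (adjusted p 0.00796).

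Genes of the machinery of silencing marks were listed as 14 for DNA methylation, 28 for Polycomb and 14 for H3K9 methylation. The lists also hold genes that read or remove these marks, so the counts below are not of silencing genes alone. Of the 51 tested, 5 differed among the lines (9.80%), against 14.9% of all genes that were not members. With the replicate block 16 of the 51 did, against 42.8% of those genes. By list limma called 3 of 14, 2 of 25 and 0 of 12, and with the block 6, 9 and 1. Without the block the H3K9 list had 0 at an unadjusted p under 0.05, and edgeR and DESeq2 also called 0 of it. The count of 5 fell to 2 or 3 without either library of control line 1 or of the line labelled KO guide 1, or without replicate 2 in the line labelled KO guide 2. The lowest p belonged to RBBP7, a histone-binding subunit of Polycomb and other chromatin complexes. RBBP7 had 192 and 134 counts in the line labelled KO guide 2 and 1862 to 2015 in the 6 other libraries, a ratio of 11.9 between line means (limma F adjusted p 2.26e-05).

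PCGF5, a subunit of Polycomb complex 1, had means of 356, 190.3, 470.1 and 216 in control lines 1 and 2 and the lines labelled KO guide 1 and 2 (limma F adjusted p 0.00481). MBD4, a glycosylase that repairs mismatches at methylated CpGs, was at 753, 639, 493 and 328 (limma F adjusted p 0.0116). DNMT3B, a de novo DNA methyltransferase, was lowest in control line 1 at 534 and highest in the line labelled KO guide 2 at 931 (limma F adjusted p 0.034). ZBTB33, a reader of methylated DNA, was lowest in that line at 285. Whether these differences bear on the switched genes was not tested. Of the 5 listed genes that did not pass the filter, RING1, DAXX, EHMT2 and PHF1 lie on chromosome 6 in or beside the HLA region described above, at 0 to 49.6 counts. The fifth, PCGF2, had 50.9 counts in replicate 1 in the line labelled KO guide 1 and 0 in all other libraries.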

How the data were processed

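RNA-seq of 8 A-498 libraries was analysed from 1 deposited table. Per the submitters' processing notes, fastp 0.23.2, HISAT2 2.2.1, featureCounts 2.0.1 and DESeq2 2.11.40.8 were used, on build hg38 (GRCh38). The annotation and the use of strand are not given in the sources used here. The deposited values were a normalized signal, whole read counts divided by 1 factor per library: 100% of values above 0 were whole multiples of 1 read within a relative 1e-06. Symbols and positions came from RefSeq (GRCh38.p14).

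The 14040 genes that reached 10 in 2 or more libraries were tested, all 39 members among them. Since members passed through their high lines, their line differences were not tested, and the planned test between replicates is given without being read, since line means hold both replicates. Tests used limma 3.58.1 (R 4.3.3) on log2(value + 1) with a mean-variance trend and Benjamini-Hochberg adjustment over all tested genes, so folds of low genes are understated. The scripts were checked on simulated data. Alternatives covered scaling (TMM from edgeR 4.0.16, equal totals), pseudocount, filter, edgeR's quasi-likelihood test and DESeq2 1.42.0 on recovered reads, a replicate block, and leaving out each library. Replicate numbers came from the titles. Differences between replicates correlated at 0.285 to 0.501 in all 6 pairs of lines, so libraries of the same number share some variation. The main tests among lines left this pairing out, and only the fits with the replicate block took it in.

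Members and lists were chosen with earlier results of these data known. Named by rule were the 6 genes given with the selection, the 4 highest members of each set of silent lines, members called between replicates or with neighbours called in their direction, the 3 genes on each side of each limit, and the 3 machinery genes with the lowest adjusted p. Other members are named to account for all 39, and uncalled neighbours, AIF1L, neighbours called only with the block, DNMT3B, ZBTB33 and the untested machinery genes were named after their values were seen. Counting intervals and floors cover counting error only, since reads carried no molecular identifiers.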

Additional observations from a re-analysis of the deposited data

How the results depend on the processing

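The number of switched genes was 39 with TMM scaling and 38 with equal library totals. It depended on the limits: 8 genes at 2 and 100, 80 at 10 and 50, 12 at 5 and 100, and 24 where every library had to pass. Leaving out 1 library gave 39 to 49. Members called between replicates numbered 4 or 5 under other scalings, pseudocounts, filters and tools, and 2 to 4 with a library left out.

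The replicate block raised neighbours called against the member from 1 to 11 (7.05%, against 7.92% on the own chromosome). Neighbours called with the member numbered 18 to 24 under other scalings, pseudocounts and tools (11.5% to 15.4%, against 3.89% to 5.25% of other genes). They numbered 12 without a filter on low values (7.69%, against 2.34%) and 39 with the replicate block (25%, against 11.7%). Without replicate 1 or 2 of control line 1 they were 8 (5.13%, against 1.59% of other genes) and 12, without replicate 1 of control line 2 15, without either library of the line labelled KO guide 1 12 and 13, and 13 when replicate 2 in the line labelled KO guide 2 was dropped. The range was 8 to 20. In all these fits the share exceeded that of other genes over all chromosomes. On the own chromosome that share of other genes was higher, at 6.96% in the main fit and 16.6% with the block. Neighbours that differed among the lines at all numbered 18 to 39 under other scalings, pseudocounts and tools (11.5% to 25%, against 12.4% to 21.4%). Without a filter 15 did (9.62%, against 8.06%), and with the replicate block 72 did (46.2%, against 42.8%). They numbered 6 to 25 with a library left out, lowest without replicate 1 (6) or 2 (8) of control line 1 and without those of the line labelled KO guide 1 (11 and 10).

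With 1 gene on each side, 11 of 78 were called with the member (14.1%) and 14 differed at all (17.9%). With 5 on each side these were 49 (12.6%) and 68 (17.4%) of 390, against 4.26% and 14.9% of other genes. The next sets were chosen after seeing the data, with the share called with the member set against that on the own chromosome. Neighbours within 100 kb gave 6 and 9 of 55 (10.9%, against 6.28%). Those beyond 100 kb gave 17 and 18 of 101 (16.8%, against 6.76%). The near and far sets came from 24 and 35 members and differ in their chromosomes, so nothing is read about distance. Members off chromosomes 3 and 9 gave 10 and 17 of 128 (7.81%, against 3.42%). Members not silent in the line labelled KO guide 2 gave 5 and 8 of 76 (6.58%, against 2.23%). Silencing machinery genes called numbered 16 with the replicate block and 2 to 6 with a library left out, under 4 without either library of control line 1 or of the line labelled KO guide 1, or when replicate 2 in the line labelled KO guide 2 was dropped. The 24 called neighbours kept their sign in each of 13 to 16 refits. IL1RAP, PLAAT1 and FIBCD1 kept their call in all 16 and ZNF431 in the 13 that gave it a value, while the other 20 lost it in at least 1, ELOF1 in 10. The cause of these shifts was not tested. Depth limits silent values to a few reads.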
